A study of Mus musculus with 16 samples.

Results

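The IL-4 and IL-13 receptor genes, the Janus kinases, Stat6 and Irs2 form the set described here, which holds 10 of the 41325 genes in the deposited tables. They were chosen by name, with earlier results of these data known. The set holds the receptor subunits Il4ra, Il13ra1, Il13ra2 and Il2rg, the kinases Jak1, Jak2, Jak3 and Tyk2, the transcription factor Stat6 and the adaptor Irs2. The samples were immortalized preadipocytes, cultured precursors of fat cells, with a wild-type genotype from the mouse strain C57Bl6/J. There were 4 groups of 4 libraries, namely cells pre-treated with IL-13 for 16 h and sampled at day 6 of differentiation, cells without the agent at day 6, IL-13 pre-treated cells at day 0, and cells without the agent at day 0. All groups shared the immortalization, and the labels used here do not say whether the cells were 1 clone, how they had been immortalized or how differentiation was induced. Whether replicate libraries derive from independent cultures is not given, and the p-values therefore reflect library-to-library spread that could be technical.

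IL-4 and IL-13 are cytokines of type 2 immunity, and both signal through receptors that contain Il4ra. Il4ra pairs with Il2rg, the common gamma chain, to form a receptor for IL-4 that is typical of blood cells, and it pairs with Il13ra1 to form a receptor for IL-4 and IL-13 that is typical of other cells. The receptor tails carry Janus kinases, with Jak1 on Il4ra, Jak3 on the gamma chain and Tyk2 or Jak2 on Il13ra1. The kinases phosphorylate Il4ra, which docks Stat6, a transcription factor that then enters the nucleus, and Irs2, an adaptor that passes the signal to phosphoinositide 3-kinase and also serves the insulin receptor. Il13ra2 binds IL-13 tightly and has only a short intracellular tail, and it is best known as a decoy receptor.

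The deposited tables place the genes on the mouse assembly GRCm38 (mm10), and the GENCODE annotation gave the same coordinates for all 10. Il4ra (ENSMUSG00000030748) lies at chr7:125552120-125579474 on the plus strand. Il13ra1 (ENSMUSG00000017057) lies at chrX:36112110-36171259 on the plus strand, and Il13ra2 (ENSMUSG00000031289) at chrX:147383476-147429192 on the minus strand. These 3 subunits bind IL-13 or take part in its receptor, and the DNA just before each gene start is shown because their transcripts behaved differently after IL-13, as described below. The sequences are RefSeq promoter sequences of GRCm38.p6, read 5′ to 3′ along the gene's strand, cut to the bases that lie before both the RefSeq start and the annotated gene start, and capitals mark CG pairs. The other members lie at chrX:101264378-101268255 (Il2rg), chr4:101152367-101265282 (Jak1), chr19:29251828-29313080 (Jak2), chr8:71676296-71690575 (Jak3), chr9:21104068-21131243 (Tyk2), chr10:127642986-127660957 (Stat6) and chr8:10984681-11008458 (Irs2). The printed sequences come from chr7:125552021-125552119, chrX:36111858-36112107 and chrX:147429193-147429442.
Il4ra: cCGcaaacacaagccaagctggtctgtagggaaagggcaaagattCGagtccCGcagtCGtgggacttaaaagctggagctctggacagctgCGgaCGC
Il13ra1: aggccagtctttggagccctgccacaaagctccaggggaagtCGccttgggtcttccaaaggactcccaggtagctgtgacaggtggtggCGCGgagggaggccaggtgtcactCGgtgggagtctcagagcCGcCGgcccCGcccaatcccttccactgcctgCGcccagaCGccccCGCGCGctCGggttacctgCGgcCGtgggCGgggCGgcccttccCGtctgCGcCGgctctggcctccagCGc
Il13ra2: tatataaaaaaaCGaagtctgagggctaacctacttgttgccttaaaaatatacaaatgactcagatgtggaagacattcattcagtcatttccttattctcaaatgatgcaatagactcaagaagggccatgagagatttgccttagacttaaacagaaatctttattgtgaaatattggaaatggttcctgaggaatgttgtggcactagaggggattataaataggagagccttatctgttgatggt
Over the 250 bases before each RefSeq start, Il13ra2 held 1 CG pair, and 7.9% of 32851 mouse promoters had fewer. Il4ra held 17 and Il13ra1 held 21, against a median of 6 over all promoters. The letters TTCNNNNGAA, a spacing that Stat6 is known to bind, were found in 5.85% of all promoters, and the related TTCNNNGAA in 7.02%; both motifs read the same on either strand, and neither was found in these windows of any of the 10 genes. This says only that the letters are absent from these windows.

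Library totals ran from 15253031 to 18112087 counts, and 15447 to 16201 genes had at least 1 count in a library. Levels below are CPM, counts scaled to a common library size, on library sizes scaled by the trimmed mean of M values (TMM) over all 16 libraries, as mean ± SD with n = 4, unless TPM, which also divides by transcript length, is named. The libraries matched the labelled stage of differentiation: the summed CPM of 8 adipocyte markers was 26909 to 29008 in IL-13 pre-treated and 25536 to 27490 in untreated libraries at day 6, against 480 to 501 and 512 to 552 at day 0. Leukocyte markers, which matter here because Il2rg and Jak3 are typical of blood cells, stayed low. Of 12 such markers, all 12 were under 1 CPM in both groups at day 6, and 10 of 12 in both groups at day 0, and their summed CPM was at most 0.33 at day 6 and at most 7.54 at day 0. Ptprc, which marks nearly all leukocytes, had 0 counts in all 8 libraries of day 6. A list of 12 nuclear-retained RNAs and RNA-processing transcripts differed between treatment groups without overlap: its summed CPM was 309 to 571 in IL-13 pre-treated and 791 to 1519 in untreated libraries at day 6, and 240 to 297 in IL-13 pre-treated and 371 to 833 in untreated libraries at day 0. Its part in the IL-13 results below was not tested beyond the fits named there.

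Before the comparisons, the levels of the members differed widely among themselves. Per transcript length, Stat6 and Jak1 were the most abundant members in all 4 groups. Stat6 led at day 6, with 97.8 ± 7.06 TPM in IL-13 pre-treated and 105 ± 4.52 TPM in untreated cells, ahead of Jak1 with 82.5 ± 8.48 TPM and 82.2 ± 4.42 TPM. The IL-13 libraries of these 2 genes overlapped at day 6 and the untreated ones did not. Jak1 led at day 0, with 173 ± 8.36 TPM in IL-13 pre-treated and 190 ± 5.31 TPM in untreated cells, ahead of Stat6 with 130 ± 3.24 TPM and 145 ± 3.76 TPM, and there the libraries of the 2 genes did not overlap. The next places went to Irs2, then Il4ra and Jak2 at day 6, and to Jak2 and then Il4ra at day 0. Il4ra and Jak2 did not differ beyond their spread at day 6 in either group, and neither did Jak3 and Tyk2. Tyk2, Irs2 and Il13ra1 lay at 7.61 to 8.83 TPM in IL-13 pre-treated and 11.4 to 11.7 TPM in untreated cells at day 0, each overlapping its neighbour. Il2rg was lowest or next to lowest in every group. The order by the deposited RPKM values was the same, but RPKM and TPM rank genes alike within a library, so this is no separate check.

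Before differentiation, the shared receptor subunit Il4ra was the member that differed most clearly between IL-13 pre-treated and untreated cells. At day 0, Il4ra and Jak2 were higher and Il13ra1 and Jak3 lower in IL-13 pre-treated cells, 4 of the 8 members that could be tested. Il13ra2, the decoy receptor, was read in all 4 IL-13 libraries and in no untreated library. Jak1, Tyk2, Stat6 and Irs2 did not pass the test. Of all 12274 genes tested at day 0, 47.9% were called (edgeR quasi-likelihood test, Benjamini-Hochberg adjusted p under 0.05), 23.7% higher and 24.2% lower, so that the members' share of calls was near that of all genes. Il13ra2 and Il2rg had too few counts for the filter of this fit.

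Il4ra, which is common to both receptors, had 87.9, 82.1, 89.4 and 85.1 CPM in the IL-13 pre-treated libraries at day 0, against 29.9, 32.5, 35.3 and 32.0 CPM in the untreated libraries. Every IL-13 library was above every untreated library. The change was 2.63-fold, a log2 fold change of 1.40 with a standard error (SE) of 0.06 (edgeR adjusted p = 4.08e-11). The call was kept under each alternative fit tried. Of the exon bases of Il4ra, 9.51% are shared with the predicted gene Gm44876 on the opposite strand, and whether the counting used the strand is not given in the sources used here.

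Il13ra1, the partner of Il4ra in the receptor for IL-13, moved the other way. It had 140, 136, 158 and 143 counts in the IL-13 libraries and 243, 196, 173 and 216 counts in the untreated libraries at day 0. Scaled to library size these were 8.88 ± 0.458 CPM in IL-13 pre-treated and 11.5 ± 1.10 CPM in untreated cells, with no overlap between the groups. The log2 fold change was -0.39 (SE 0.10, edgeR adjusted p = 0.00397). The call was lost when the 2 untreated libraries with the most nuclear RNA, replicates 1 and 4, were left out (-0.31, edgeR adjusted p = 0.0633). It was also lost when the nuclear RNA level was a covariate (-0.13, edgeR adjusted p = 0.814). Over all genes, the first fit called 1811 higher and 1674 lower and the covariate fit 414 and 368, against 2912 and 2969 in the main fit. Because the summed CPM of the nuclear list did not overlap between the groups, the covariate and IL-13 cannot be told apart. With Il4ra higher and Il13ra1 lower, their ratio in TPM stood at 6.01 ± 0.321 in IL-13 pre-treated and 1.76 ± 0.302 in untreated cells at day 0.

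Il13ra2 had 10, 9, 7 and 4 counts in the IL-13 libraries at day 0 and 0 counts in each untreated library. Set against 3 counts, the limit that a count of 0 over the 4 untreated libraries allows, its level was 10.1-fold higher after IL-13. This takes the 30 counts of the IL-13 libraries as exact, so it is no firm lower bound. The groups did not overlap, and the exact two-sided permutation test gave p = 0.0286, the smallest it can give. The mean level after IL-13 was 0.46 ± 0.158 CPM, which rests on few counts. Il2rg, the common gamma chain, had 3, 1, 3 and 3 counts in the IL-13 libraries and 1, 0, 3 and 0 counts in the untreated libraries (exact permutation p = 0.0571), and the groups overlapped. The summed CPM of the 12 leukocyte markers was 6.08 to 7.54 in the IL-13 and 3.75 to 5.53 in the untreated libraries at day 0, and its part in the Il2rg counts was not tested. The single markers did not move together. Of 3 that could be tested, Csf1r was called higher after IL-13 (mean 4.46 against 1.60 CPM), Lyz2 lower (1.36 against 2.17 CPM) and 1 was not called. Part of these few reads cannot be assigned with certainty, since 30.5% of the exon bases of Il2rg are shared with Gm20489 on the same strand.

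**Figure D1:**
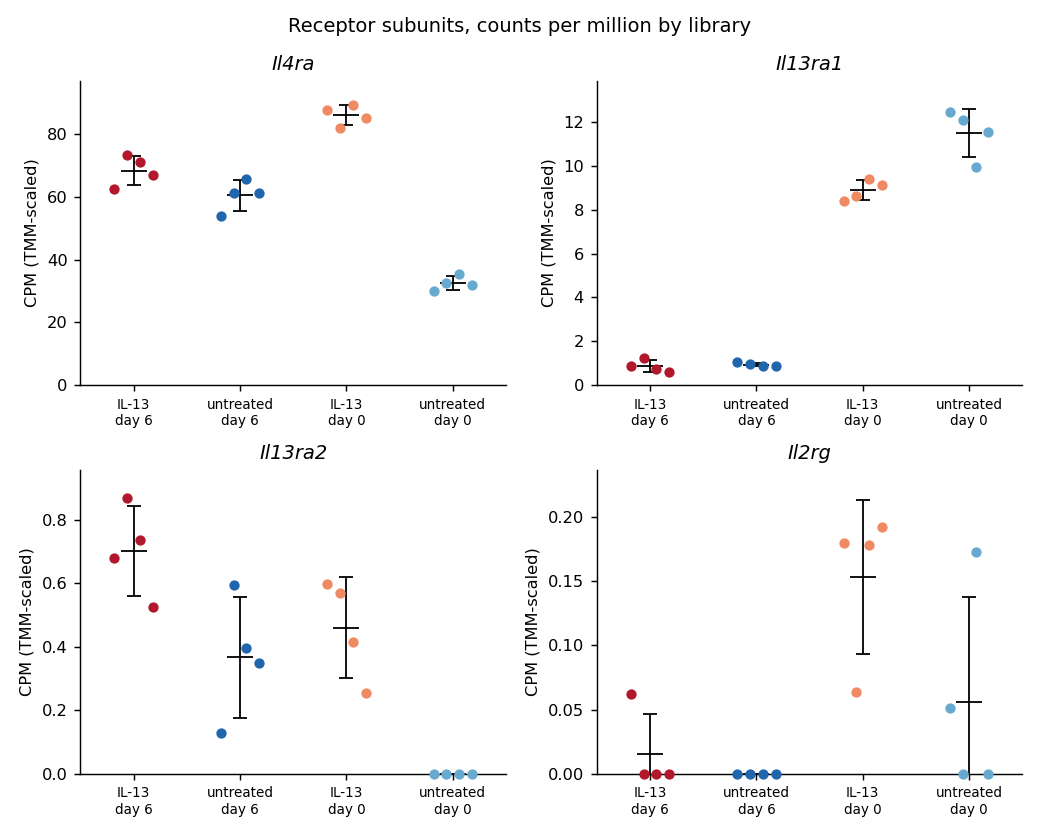
Level of the 4 receptor subunits in each library, in CPM on TMM-scaled library sizes, with points for libraries and bars for the mean ± SD of 4 libraries per group. Il4ra at day 0 sits between 82.1 and 89.4 CPM after IL-13 and between 29.9 and 35.3 CPM without it, while Il13ra1 is near 1 CPM in every library of day 6.

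Among the kinases at day 0, Jak3 had the largest change and the lowest level. It had 17, 17, 18 and 15 counts in the IL-13 libraries, against 35, 32, 34 and 40 counts in the untreated libraries. No IL-13 library reached the lowest untreated one, and the log2 fold change was -0.94 (SE 0.19, edgeR adjusted p = 0.00104). With the nuclear RNA level as a covariate the estimate was -0.94 again and the edgeR adjusted p was 0.217. As given above, that fit called far fewer of all genes. Jak3 shares 7.55% of its exon bases with Insl3 on the same strand, a gene with at most 1 count in any group.

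Jak2, which can sit on Il13ra1, had 100, 93.0, 93.3 and 94.6 CPM in the IL-13 libraries and 81.1, 87.2, 75.1 and 74.2 CPM in the untreated libraries at day 0. The groups did not overlap, and the log2 fold change was 0.25 (SE 0.06, edgeR adjusted p = 0.0026). This call depended on the scaling: with library totals in place of TMM, which shifts the median of all genes to -0.13 on the log2 scale, Jak2 was at 0.13 (edgeR adjusted p = 0.0947), and with the nuclear RNA covariate at 0.31 (edgeR adjusted p = 0.114). Jak1, the kinase on Il4ra, had a log2 fold change of 0.06 with a 95% interval of -0.06 to 0.18, and its groups overlapped. Tyk2, also a partner of Il13ra1, had -0.17 with an interval of -0.36 to 0.02. Of the exon bases of Tyk2, 8.07% are shared with 1700084C06Rik on the opposite strand, and 7.52% of its 50-base stretches occur in other genes.

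Stat6 transcripts stood at 180 ± 7.02 CPM in IL-13 pre-treated and 173 ± 6.45 CPM in untreated cells at day 0. The log2 fold change was 0.04 with a 95% interval of -0.07 to 0.14, and the groups overlapped. On the deposited TPM scale the picture differed, with 134, 126, 130 and 130 TPM in the IL-13 libraries, all below the 144, 143, 142 and 151 TPM of the untreated libraries. Under total count scaling the fold change of Stat6 was -0.08 (edgeR adjusted p = 0.117), less negative than the median of all genes under that scaling. Irs2, the adaptor, had 17.5 ± 1.70 CPM after IL-13 and 20.1 ± 2.37 CPM without it (log2 fold change -0.22, SE 0.09, edgeR adjusted p = 0.0683). It passed the threshold when untreated replicate 2 was left out (-0.28, edgeR adjusted p = 0.0228) and under total count scaling (-0.34, edgeR adjusted p = 0.00862).

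Other genes of the pathway were counted at day 0 beside the 47.9% of all genes that were called there. Their calls, here and in the next paragraph, come from the fit without the nuclear RNA covariate. How they fared with it is not given, and that fit called 414 of all genes higher and 368 lower. Of 6 known Stat6-responsive genes that could be tested, from a list of 14, 4 were higher and 2 lower, with a median log2 fold change of 1.01 against -0.01 over all genes. Ccl11, the chemokine eotaxin, was at 17.1 ± 2.04 CPM in IL-13 pre-treated and 0.0838 ± 0.0320 CPM in untreated cells, and the transglutaminase Tgm2 rose with a log2 fold change of 1.70 (edgeR adjusted p = 7.94e-12). Ccl11 entered the fit through its IL-13 libraries, so its being tested and its higher level are not independent, and the median includes it. The transcription factor Egr2 (-0.95) and the adhesion molecule Vcam1 (-0.31) fell. Of 10 tested inhibitors of cytokine signalling, 4 were higher and 2 lower, a share of calls not far from that of all genes. The smallest p-values among them were those of Cish at 72.0 ± 4.25 CPM in IL-13 pre-treated and 10.4 ± 0.913 CPM in untreated cells, and of Socs1 at 2.72 ± 0.566 CPM and 0.618 ± 0.165 CPM.

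Of 12 signal transducers that act beside or after Irs2 and Stat6, 2 were higher and 8 lower at day 0, with a median log2 fold change of -0.17. Irs1, the close relative of Irs2, fell by 0.73 on the log2 scale (edgeR adjusted p = 0.00733), and Pik3r1, a regulatory subunit of phosphoinositide 3-kinase, by 0.53 (edgeR adjusted p = 1.61e-06). Ncoa1, a coactivator that binds Stat6, rose with a log2 fold change of 0.44 (edgeR adjusted p = 2.36e-05). Stat2, Stat3, Stat5a and Stat5b, relatives of Stat6, fell by 0.19 to 0.26 on the log2 scale. Of 10 other cytokine receptors that use Janus kinases, 2 were higher and 5 lower, with Lifr at -1.12, Osmr at -0.76 and Il6st at 0.66.

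At day 6, none of the 9 members tested differed between IL-13 pre-treated and untreated cells by the edgeR test, and none by DESeq2, against 6.55% of 12352 genes called by edgeR (2.21% higher and 4.34% lower). At an unadjusted p under 0.05 by edgeR there were 4 of 9, namely Il4ra, Il13ra2, Jak1 and Tyk2, against 3325 of all 12352 genes. The groups of all 10 members overlapped, and how many of all genes did so was not counted.

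Il4ra had 62.5, 73.3, 71.1 and 66.9 CPM in the IL-13 libraries at day 6, against 53.8, 61.3, 65.6 and 61.3 CPM in the untreated libraries. The log2 fold change was 0.19, with a 95% interval of 0.02 to 0.36 (edgeR adjusted p = 0.136). This interval lies wholly below that of day 0, which ran from 1.27 to 1.52. Il13ra2 had 11, 14, 11 and 9 counts in the IL-13 libraries and 2, 10, 6 and 6 counts in the untreated ones (log2 fold change 0.92, SE 0.38, edgeR adjusted p = 0.15). It entered the fit mostly through its IL-13 libraries, so its being tested and its higher estimate are not independent. Il13ra1 was nearly gone from both groups, with 14, 20, 11 and 10 counts in the IL-13 and 16, 16, 13 and 15 counts in the untreated libraries. Il2rg had 1 count in all 4 IL-13 libraries together and 0 in the untreated ones.

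Tyk2 had 13.3, 11.04, 15.9 and 14.4 CPM in the IL-13 libraries at day 6, against 19.4, 15.7, 18.1 and 16.2 CPM in the untreated libraries. The groups overlapped in that 1 untreated library lay below the highest IL-13 library, and the log2 fold change was -0.33 (SE 0.12, edgeR adjusted p = 0.0979). It passed the threshold under total count scaling (-0.42, adjusted p = 0.0397) and in 1 fit of all 16 libraries (-0.34, adjusted p = 0.0468). For the other members the intervals bound the difference: Jak1 at 0.14 (0.01 to 0.27), Jak2 at 0.09 (-0.05 to 0.23), Stat6 at 0.04 (-0.08 to 0.16) and Irs2 at -0.04 (-0.23 to 0.15). Jak3 at -0.13 (-0.45 to 0.19) was less tightly bounded, with 8.72 to 15.1 CPM in the IL-13 libraries and 12.2 to 15.1 CPM in the untreated ones.

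**Figure D2:**
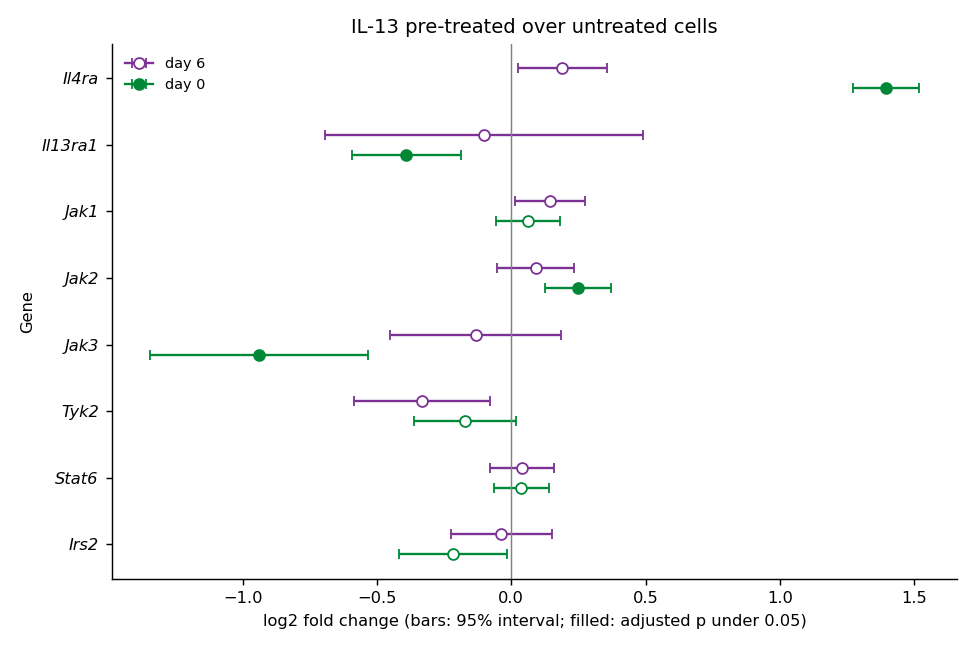
Log2 fold change of IL-13 pre-treated over untreated cells for the 8 members tested at both days, with 95% intervals, day 6 above day 0, and filled points for an adjusted p under 0.05. Il4ra stands at 0.19 at day 6 and 1.40 at day 0, and all points of day 6 are open.

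The lists of pathway genes gave no edgeR call at day 6 for 12 transducers (4 at an unadjusted p under 0.05, 2 called lower by DESeq2), 9 inhibitors (1 and 0), 6 Stat6-responsive genes (2 and 1) and 11 other receptors that use Janus kinases (3 and 1). Over all 12352 genes tested, 3325 had an unadjusted p under 0.05 by edgeR, and DESeq2 called 583 higher and 853 lower. Cish was at 9.73 ± 0.908 CPM in IL-13 pre-treated and 8.62 ± 1.16 CPM in untreated cells, and Ccl11 at 0.987 ± 0.566 CPM and 1.12 ± 0.373 CPM. Il15ra, a receptor chain that works with the common gamma chain, was lower after IL-13 (log2 fold change -0.60, edgeR adjusted p = 0.0243). This call was lost with the nuclear RNA level as a covariate, a fit in which edgeR called 0 genes at day 6 (1284 at an unadjusted p under 0.05). Of the ligands, Il13 was read at day 6 only, with 10 counts in the IL-13 libraries and 31 in the untreated libraries together, and Il4 had 1 count over all 16 libraries.

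Over the 6 days of differentiation nearly every member changed, in a background in which most genes did. In IL-13 pre-treated cells 80.8% of 13157 genes were called between day 6 and day 0 (40.6% higher and 40.3% lower), and in untreated cells 80.5% (41.5% higher and 39% lower). Of the 9 members tested, 2 were higher, 6 lower and 1 not called at day 6 in IL-13 pre-treated cells, and 4 were higher and 5 lower in untreated cells. These bulk libraries cannot tell fewer cells of a type from less RNA per cell, and the adipocyte markers moved with every one of these changes, as given above, so that the members' changes and the change of cell state cannot be told apart.

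Il13ra1 fell furthest. It had 0.856 ± 0.281 CPM at day 6 and 8.88 ± 0.458 CPM at day 0 in IL-13 pre-treated cells, 10.3-fold lower at day 6, and 0.927 ± 0.080 CPM at day 6 and 11.5 ± 1.10 CPM at day 0 in untreated cells, 12.3-fold lower. The log2 fold changes were -3.37 (edgeR adjusted p = 3.92e-14) and -3.62 (edgeR adjusted p = 5.38e-15). Every library of day 6 held 10 to 20 counts, and every library of day 0 held 136 or more.

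Il4ra went in opposite directions in the 2 arms. In IL-13 pre-treated cells it stood at 68.4 ± 4.77 CPM at day 6 and 86.1 ± 3.21 CPM at day 0 (log2 fold change -0.33, edgeR adjusted p = 0.000119). In untreated cells it stood at 60.5 ± 4.91 CPM at day 6 and 32.4 ± 2.23 CPM at day 0 (0.90, edgeR adjusted p = 1.5e-10). The libraries of the 2 days did not overlap in either arm. The ratio of Il4ra to Il13ra1 in TPM thus reached 53.0 ± 15.4 in IL-13 pre-treated and 40.8 ± 6.41 in untreated cells at day 6, where Il13ra1 rests on few counts.

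Il13ra2 was read in every library of day 6. In IL-13 pre-treated cells it had 45 counts at day 6 and 30 at day 0, summed over 4 libraries each, and was not called (log2 fold change 0.59, edgeR adjusted p = 0.149). In untreated cells it had 24 counts at day 6 and 0 at day 0 and was called higher (edgeR adjusted p = 2.64e-05). Against a limit of 3 counts over the group at 0 this was 8.26-fold, with the 24 counts taken as exact. Il13ra2 entered this fit through its libraries of day 6, so its being tested and its higher level at day 6 are not independent.

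Jak3 and Irs2 rose in both arms. Jak3 was at 11.9 ± 2.63 CPM at day 6 and 1.03 ± 0.0544 CPM at day 0 in IL-13 pre-treated cells, an 11.5-fold rise (edgeR adjusted p = 6.53e-14), and at 13.2 ± 1.27 CPM at day 6 and 1.97 ± 0.143 CPM at day 0 in untreated cells, a 6.69-fold rise (edgeR adjusted p = 4.85e-13). Its usual partner Il2rg had 1 count in the 8 libraries of day 6, and the leukocyte marker Ptprc had none. Irs2 was at 108 ± 12.03 CPM at day 6 and 17.5 ± 1.70 CPM at day 0 in IL-13 pre-treated cells (6.16-fold, edgeR adjusted p = 8.87e-16), and at 112 ± 9.78 CPM at day 6 and 20.1 ± 2.37 CPM at day 0 in untreated cells (5.54-fold, edgeR adjusted p = 1.64e-15).

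Jak1 and Jak2 fell in both arms. Jak1 was at 204 ± 12.4 CPM at day 6 and 393 ± 19.7 CPM at day 0 in IL-13 pre-treated cells, and at 186 ± 8.70 CPM at day 6 and 373 ± 22.2 CPM at day 0 in untreated cells, log2 fold changes of -0.95 and -1.001. For Jak2 the log2 fold changes were -0.83 and -0.64. Stat6 and Tyk2 fell by less: Stat6 by 0.29 on the log2 scale in IL-13 pre-treated cells (edgeR adjusted p = 2.84e-05) and by 0.26 in untreated cells (edgeR adjusted p = 8.45e-05), and Tyk2 by 0.48 (edgeR adjusted p = 0.000385) and 0.29 (edgeR adjusted p = 0.0141). The call of Tyk2 in untreated cells was lost without untreated day 0 replicate 4 (-0.23, edgeR adjusted p = 0.0539).

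**Figure D3:**
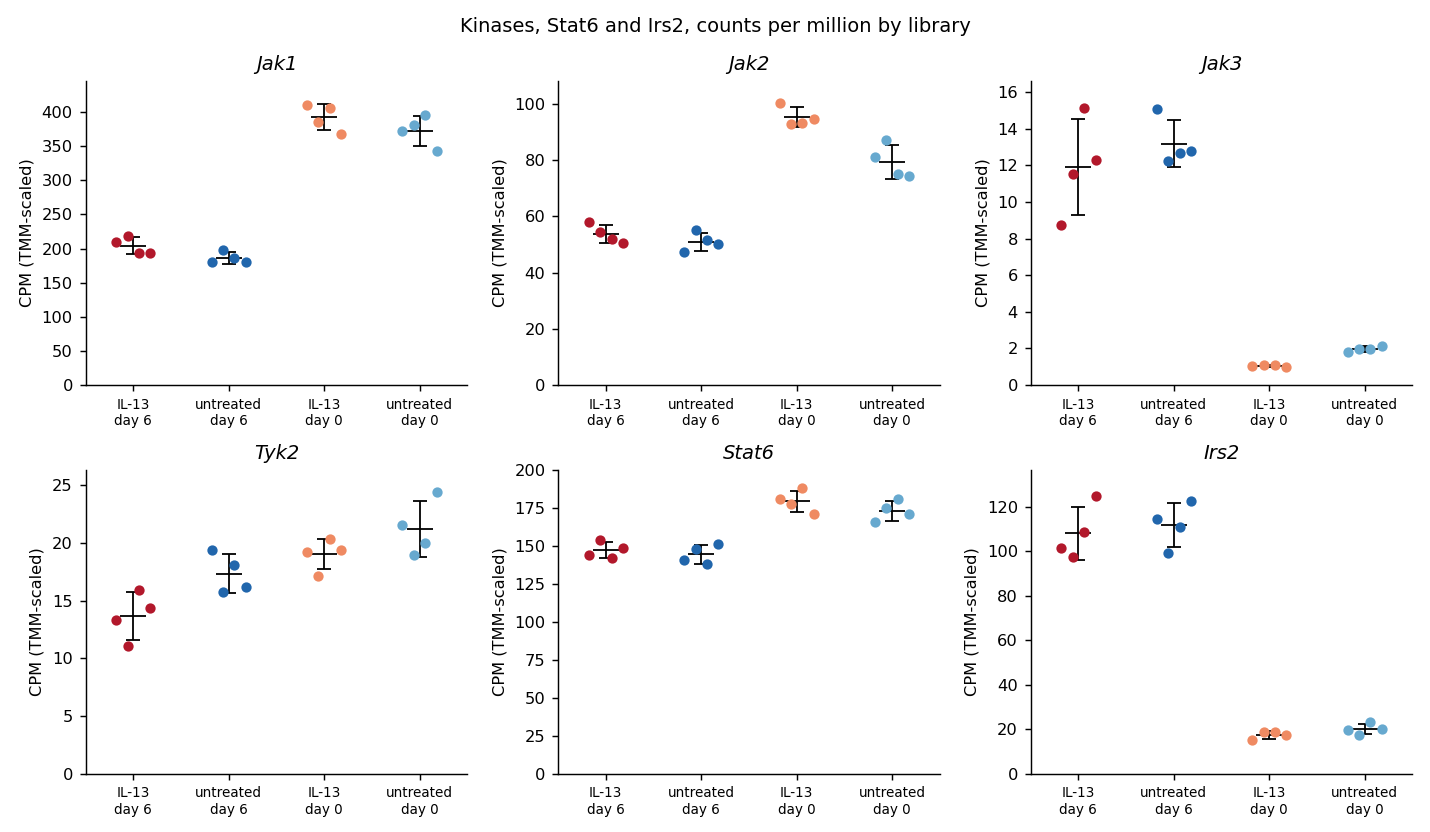
Level of the 4 Janus kinases, Stat6 and Irs2 in each library, in CPM on TMM-scaled library sizes, with points for libraries and bars for the mean ± SD of 4 libraries per group. Jak3 and Irs2 are higher and Jak1 and Jak2 lower in all libraries of day 6 than in all libraries of day 0, while Stat6 moves by less.

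**Figure D4:**
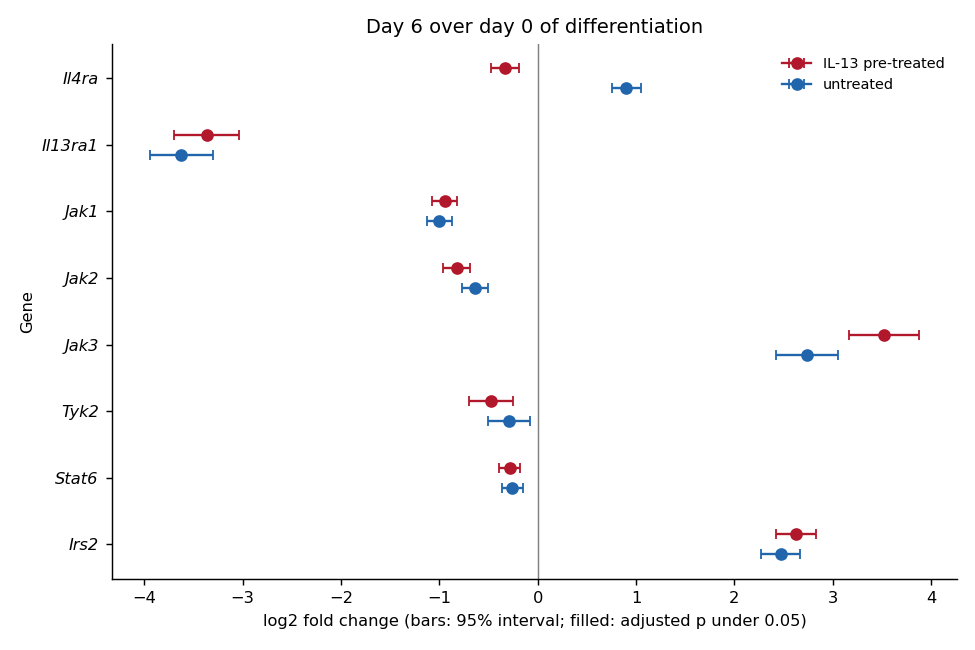
Log2 fold change of day 6 over day 0 for 8 members in IL-13 pre-treated (above) and untreated cells (below), with 95% intervals and filled points for an adjusted p under 0.05. Il4ra is the one member of the 8 whose estimates lie on opposite sides of 0, at -0.33 in IL-13 pre-treated and 0.90 in untreated cells.

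The make-up of the kinase transcripts shifted accordingly. Jak1 made up 65.4% ± 1.69 of the summed TPM of the 4 kinases in IL-13 pre-treated and 63.0% ± 0.672 in untreated cells at day 6, and 71.3% ± 0.895 in IL-13 pre-treated and 72.8% ± 1.52 in untreated cells at day 0. Jak3 made up 5.19% ± 1.26 and 6.04% ± 0.733 at day 6, and 0.253% ± 0.0136 and 0.520% ± 0.0584 at day 0, in the same order of groups. Jak2 stayed between 22.3% and 24.9% in all 4 groups.

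**Figure D5:**
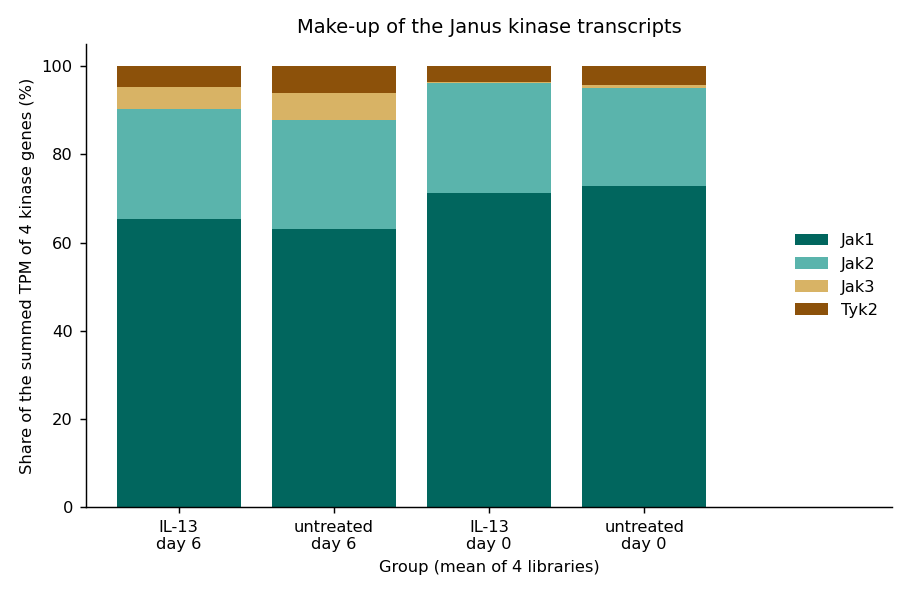
Share of each Janus kinase in the summed deposited TPM of Jak1, Jak2, Jak3 and Tyk2, in percent, as the mean of 4 libraries per group. Jak1 is the largest share in each group, and Jak3 is 5.19% and 6.04% at day 6 but under 1% at day 0.

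Whether the IL-13 effect changed with the day was then tested directly in 1 fit of all 16 libraries. It did for 2 of the 9 members tested, both with a lower IL-13 over untreated ratio at day 6 than at day 0, against 8.06% of 13157 genes (3.12% higher and 4.95% lower). For Il4ra the effect at day 6 was smaller than at day 0 by 1.23 on the log2 scale (SE 0.10, a difference of -1.23, edgeR adjusted p = 1.37e-08). For Il13ra2 the edgeR adjusted p was 0.00609. The size of this difference is not given because the untreated group of day 0 was at 0, and DESeq2 gave no adjusted p for it. Il13ra2 entered this fit through its libraries of day 6, so its being tested depended on its level there. These comparisons use the same 16 libraries as those within days and between days, and so are not separate evidence.

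For Jak3 the difference was 0.78 (SE 0.25) with an adjusted p of 0.0578 by edgeR, the closest to the threshold among members not called. It passed without IL-13 day 6 replicate 1 (0.96, edgeR adjusted p = 0.00433) and without untreated day 6 replicate 1 (0.89, edgeR adjusted p = 0.0385). The remaining members had intervals that included 0: Il13ra1 at 0.26 (-0.27 to 0.79), Jak1 at 0.05 (-0.12 to 0.23), Jak2 at -0.19 (-0.37 to 0.0023), Tyk2 at -0.19 (-0.50 to 0.13), Stat6 at -0.03 (-0.17 to 0.12) and Irs2 at 0.15 (-0.13 to 0.43). Of the Stat6-responsive genes, 4 of 6 had a smaller effect at day 6, Ccl11, Tgm2 (-1.51), Postn (-1.30) and Bcl6 (-1.002), and of the inhibitors Cish (-2.62) and Socs1 (-1.68) did too.

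Some genes that are not members had levels that ran closely along those of members. Over 16 libraries and 12121 genes, the closest to Il4ra by Pearson's r were Adgre5 at 0.99, Serpina3n at 0.98 and Pmm1 at 0.98. For Il13ra1 they were Myof and Emp1, both at 0.996, and the adaptor Shc1 at 0.995. For Irs2 they were Ormdl3, Sh2b2 and Cyp27a1, and for Stat6 they were Fam3a, Pdk3 and Castor1. These are descriptions with no test, since the points share their day. Any gene that changes strongly between the days in the same direction can give a high value for Il13ra1 or Irs2.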

How the data were processed

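The members, lists and tests were chosen with earlier results of these data known. Per the file headers, the authors deposited whole-number read counts per gene and library, RPKM and TPM values, which scale counts to transcript length, and a CPM column treated here as a score because its sums differed between libraries (931516 to 1063783), which was not used. RPKM and TPM served only to order members and form ratios. Build mm10 is named in the submitters' processing notes; which aligner, counter, annotation and strand setting were used is not given in the sources used here. Per the labels' protocols, 2 ug of total RNA entered a stranded mRNA library kit.

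Counts were tested with edgeR 4.0.16 (R 4.3.3) by quasi-likelihood with robust estimation, TMM scaling and its expression filter (minimum count 10, minimum total 15), with Benjamini-Hochberg adjustment over all genes tested. IL-13 comparisons within a day used that day's 8 libraries, and the others all 16. The SE is the log2 fold change over the square root of F. Members under the filter were compared by exact permutation of mean CPM. Alternatives were DESeq2 1.42.0, total count scaling, no filter, a replicate block, 1 fit of all libraries, a nuclear RNA covariate (log2 CPM, prior count 2), left-out libraries, and RPKM for the order. In simulated data, 75% of genes changed by 0.5 on the log2 scale and 97% of those changed by 1 were recovered at day 0 (12193 genes), and 68.7% and 98% at day 6 (12283 genes). The simulation gave every gene the same spread between libraries, changed few genes and held no shift in nuclear RNA. It therefore does not give the recovery rate for the real libraries. Genes named beyond the members were up to 4 per list and comparison with the smallest p, further members of those lists chosen after their values were seen, and the 3 most correlated genes of 4 members. Replicate libraries all differed by more than sampling noise. Limits from 3 counts cover the counting error of the group at 0 only, not that of the other group nor the spread between libraries. A gene of the list of other Stat genes is not reported here.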

Additional observations from a re-analysis of the deposited data

Results flagged for a closer look

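Il4ra and Il13ra2 were the members for which the effect of IL-13 differed between the days in a test of the difference itself (edgeR adjusted p = 1.37e-08 and 0.00609). For Il4ra the log2 fold change was 0.19 at day 6 and 1.40 at day 0, and all 4 IL-13 libraries lay above all 4 untreated libraries at day 0 only. For Il13ra2 the counts over 4 libraries were 45 in IL-13 pre-treated and 24 in untreated cells at day 6, and 30 and 0 at day 0. It entered this fit only through its libraries of day 6.

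In 2 of the 38 sets of 4 libraries checked, 1 library stood apart from the other 3, both times for Il2rg: IL-13 day 6 replicate 1 at 0.0618 CPM, a single count where the others had 0, and IL-13 day 0 replicate 2 at 0.0633 CPM, a single count where the others had 0.178 to 0.192 CPM. The cut-off used sets apart about 1 in 20 sets of normally distributed values by chance. That rate does not hold for counts this low, where a single count against 0 always stands apart.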

How the results depend on the processing

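With total count scaling the direction turned for Jak1 (-0.057) and Stat6 (-0.082) at day 0 and for Stat6 at day 6 (-0.049), all uncalled, and the genes called higher and lower became 1682 and 4523 at day 0 and 53 and 1032 at day 6. Members called higher and lower then became 1 and 4 at day 0, with 1 lower at day 6 and 1 higher for the difference between the days. With the nuclear RNA covariate the direction turned for Jak1 (-0.060), Stat6 (-0.067) and Tyk2 (0.052) at day 0 and for Il4ra (-0.19) and Il13ra1 (0.093) at day 6. Under that covariate 1 member was called higher and 0 lower at day 0, with 414 genes higher and 368 lower, and 0 genes were called in either direction at day 6 by edgeR (1284 at an unadjusted p under 0.05). Without the untreated libraries richest in nuclear RNA, 1811 genes were higher, 1674 lower and 1 member lower at day 0, and 0 genes higher and 2 lower at day 6. In 1 fit of all 16 libraries, 482 genes were higher and 923 lower at day 6, with 1 member lower. DESeq2 called 583 genes higher and 853 lower at day 6, and 627 higher and 1 member lower for the difference between the days. Without a filter 1 member was called higher for that difference. The difference for Stat6, near 0, turned to 0.0089 with DESeq2, 0.033 with total count scaling and 0.030 without a filter. The cause of these changes was not tested.

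Leaving out 1 library at a time gave 4 to 988 genes higher and 55 to 1340 lower for IL-13 at day 6, the highest counts without IL-13 replicate 1, and each library except untreated replicate 4 moved at least 1 of these counts by over 1.5 times. For the difference between the days it gave 409 to 696 genes higher, 418 to 747 lower and 0 to 1 members higher, with moves of over 1.5 times without IL-13 day 6 replicate 3, untreated day 6 replicate 3, IL-13 day 0 replicates 2 and 3, and untreated day 0 replicates 1 and 2. It turned uncalled values for Stat6 in that difference (-0.048 to 0.053) and, at day 6, for Irs2 (-0.11 to 0.011) and Il13ra1 (-0.34 to 0.050). The mean difference of Il13ra2 at day 0 stayed at 0.41 to 0.53 CPM, and 3 libraries against 4 cannot pass the threshold.

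The labels do not tie same-numbered libraries together, and the deviations of same-numbered libraries from their group means correlated at -0.125 to 0.215 over all pairs of groups. Between IL-13 and untreated libraries at day 6 the values were 0.197, 0.006, 0.171 and 0.215 for replicates 1 to 4, so that replicates 1, 3 and 4 correlated best with their own number and replicate 2 did not. With a replicate block, 1342 genes were higher and 1470 lower for IL-13 at day 6, with 1 member higher (Il4ra, adjusted p = 0.0259) and 1 lower (Tyk2, adjusted p = 0.0143), and Irs2 was called at day 0 (edgeR adjusted p = 0.0335). For the difference between the days the block gave 619 genes higher, 989 lower and 1 member higher (Jak3, edgeR adjusted p = 0.0486). The order of the members by level was the same with RPKM as with TPM, which is no separate check because both rank genes alike within a library. Depth limits Il13ra2 and Il2rg, with at most 14 counts in any library.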
